A study of Mus musculus with 4 samples.

Results

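Among the hematopoietic stem and progenitor cells (HSPCs) of old mice, 502 of 7482 kept cells held no transcript of any of 8 genes that rise upon aging, namely Nupr1, Clu, Selp, Sbspon, Matn4, Cldn5, Plscr2 and Gstm2. A cell was kept when its log total of unique molecular identifiers (UMIs, 1 for each captured transcript) lay within 2 SD of the mean of its pool, and a gene counted as seen when it had at least 1 UMI. These cells, called negative below, were 326 of the 3328 kept cells of old pool A and 176 of the 4154 of old pool B, out of 14915 kept cells in the 4 pools of the study. They were compared with the 1113 and 2359 cells of the same pools that showed 4 or more of the 8 genes (positive cells). The 1889 and 1619 cells with 1 to 3 of the genes formed the intermediate class. The counts of the 8 genes themselves chose the cells, so their absence is a description and was not tested.

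All cells came from male C57BL/6-CD45.2 mice, either young (2 to 3 months) or old (17 to 18 months), and the labels give no treatment or genetic change. Bone marrow of 2 or 3 mice of one age was pooled, depleted of lineage-positive cells and sorted for Lin-Sca1+cKit+Flt3- cells, a gate that holds hematopoietic stem cells (HSCs) and early multipotent progenitors. Each pool was 1 library of 10x Genomics 3′ counts, so the mice of a pool cannot be separated. Both pools named A came from the HalioDX platform and both named B from TGML. After the UMI filter young pool A held 5189 cells and young pool B 2244. In the free text of the labels 2 pools (young B, old A) carry the opposite age, and the age here is that of the titles and source names. Nupr1 had a UMI in 6.53% (A) and 8.47% (B) of kept young cells and in 71.1% (A) and 87.2% (B) of kept old cells (median 6075, 6284, 5674 and 6719 UMIs per cell). In cells with at least 5% of their UMIs in B and plasma cell genes, the share was 6 of 19 in old pool A and 3 of 9 in old pool B (median 5693 and 13847 UMIs). A share of cells with a UMI may include background, but the source of the UMIs in these cells was not tested. Any 2 pools shared between 8 and 26 cell barcodes, 20 of them between the old pools.

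HSCs sit at the top of blood formation, divide rarely and give rise to multipotent progenitors, which divide more often and start to express genes of single lineages. Upon aging the HSC compartment expands, leans towards platelet and myeloid output and turns on a set of genes for stress handling, adhesion and matrix. Nupr1 encodes a stress-responsive nuclear protein, Clu the secreted chaperone clusterin and Selp the adhesion receptor P-selectin. Sbspon and Matn4 encode matrix proteins, Cldn5 a tight junction claudin, Plscr2 a phospholipid scramblase and Gstm2 a glutathione transferase. On GRCm38 (Gencode gene bounds) the protein-coding genes lie at chr7:126623249-126630861 (Nupr1), chr14:65968483-65981547 (Clu), chr1:164115264-164150026 (Selp), chr1:15853862-15892722 (Sbspon), chr2:164389393-164405160 (Matn4), chr16:18776847-18778262 (Cldn5), chr9:92275602-92297752 (Plscr2) and chr3:107981702-107986453 (Gstm2).

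Negative cells were a minority in both old pools and the majority in both young pools. They made up 9.80% of kept cells in old pool A (exact binomial 95% interval 8.81 to 10.9) and 4.24% in old pool B (3.64 to 4.89), against 84.4% and 80.7% in young pools A and B. Intervals cover counting error only, since mice within a pool cannot be told apart. Positive cells were 33.4% of old pool A and 56.8% of old pool B, and the young pools held 2 and 5 such cells. Just outside the rule lay the old cells with exactly 1 of the 8 genes, 610 in pool A and 341 in pool B. In 54.8% and 64.2% of these the single gene was Nupr1, and 179 of 334 and 65 of 219 such cells held only 1 UMI of it. The border of the class therefore rests on single transcripts in many cells.

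**Figure D1:**
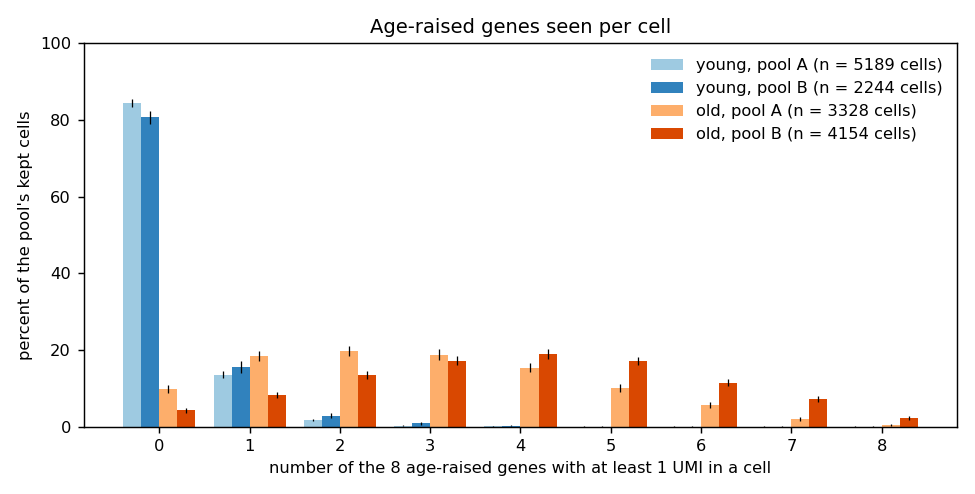
Percent of kept cells (vertical axis) by the number of the 8 genes with a UMI (horizontal axis), for each pool. Bars are shares and whiskers exact 95% binomial intervals. Both young pools pile up at 0 (84.4% and 80.7%), whereas the old pools spread from 0 to 8 with 9.80% and 4.24% at 0.

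Depth differed between the classes. Negative cells had a median of 4403 UMIs in old pool A and 6036.5 in old pool B, intermediate cells 5315 and 5887, and positive cells 6700 and 7639. From the shallowest to the deepest 25% of cells the negative share was 19.6%, 9.13%, 5.05% and 5.41% in old pool A, and in old pool B it was 7.12%, 2.89%, 3.37% and 3.56%. The shallowest cells were most often negative in both pools, but in pool B the 3 deeper groups differed little. With every cell thinned to 3000 UMIs and the classes set again, the negative share was 19.2% and 9.81%, higher than at full depth. The fits on thinned cells use these new classes. When the full-depth classes were kept, as in the thinned list shares below, negative and positive cells had a like number of genes after thinning (medians 1441 and 1453 in pool A, 1255 and 1239 in pool B). Cells under 3000 UMIs were left out there, 37 of 326 negative and 10 of 1113 positive cells in pool A. The mitochondrial share was 3.23% in negative and 3.36% in positive cells of pool A, and 2.49% and 3.07% in pool B.

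To see whether the 8 genes were low together, each gene in turn was left out of the rule, and its level was read in cells grouped by the other 7. Levels are CPM, the UMIs of a gene scaled to a total of 1000000 summed UMIs of a class in a pool. In 7 of the 8 fits the left-out gene was lower where none of the other 7 was seen than where 4 or more were (edgeR quasi-likelihood test on pool sums, Benjamini-Hochberg adjusted p under 0.05; the share of all genes called lower was 11.6% in the fit for Nupr1, 10.5% for Clu, 9.62% for Selp, 9.28% for Sbspon, 9.75% for Matn4, 8.95% for Cldn5, 10% for Plscr2 and 9.57% for Gstm2). Nupr1 had 199 and 262 CPM in old pools A and B in cells with none of the other 7, against 499 and 627 CPM where 4 or more were seen. The log2 fold change was -1.26 ± 0.06 (SE; adjusted p = 8.5e-17). Clu had 35.2 and 27.6 CPM against 233 and 243 CPM, a log2 fold change of -2.85 ± 0.13 (adjusted p = 2.9e-11). For both genes every sum of the lower class lay below every sum of the upper one.

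Sbspon showed the largest difference, with 6.42 and 3.06 CPM (11 and 4 UMIs) against 67.8 and 116 CPM (log2 fold change -4.09 ± 0.26, adjusted p = 1.4e-07). Matn4 followed at -2.99 ± 0.21, then Cldn5 and Clu, and Gstm2 stood at -2.24 ± 0.30. In single pools Sbspon stood at -3.37 in A and -5.18 in B, Matn4 at -2.60 and -3.75 and Cldn5 at -2.27 and -4.28. Selp differed by -1.83 ± 0.11, and Plscr2 differed least, at -1.16 ± 0.13. Cldn5 had 28.0 and 9.03 CPM against 136 and 178 CPM (-2.93 ± 0.48) but missed the threshold at adjusted p = 0.055, and passed it with cells thinned to 3000 UMIs (-2.36 ± 0.28, adjusted p = 0.0045).

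The left-out genes had higher levels in old than in young cells that lacked the other 7. In young cells with none of the other 7 genes, Nupr1 had 11.1 and 16.8 CPM, Clu 4.40 and 4.62 CPM and Selp 3.42 and 5.28 CPM, each below the 199 and 262, 35.2 and 27.6, and 39.2 and 26.8 CPM of the matching old cells. Plscr2 had 2.68 and 3.19 CPM against 41.4 and 37.0 CPM in those old cells. This old-to-young difference was not tested, because the 8 genes were chosen for rising with age in these pools. In immunoglobulin-rich cells, whose Nupr1 shares and depths stand above, a UMI of each of the other 7 genes was seen in 0 to 4 of 19 cells in old pool A and 0 to 2 of 9 in old pool B. The part of free RNA in the levels of old cells was not tested.

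**Figure D2:**
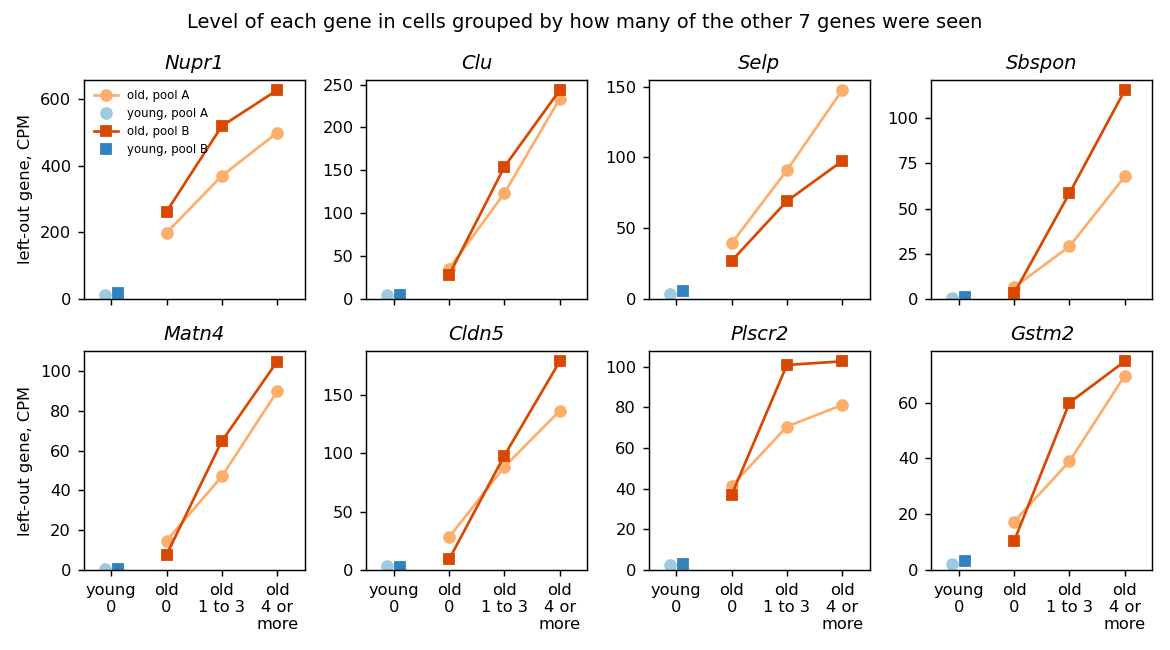
CPM of each left-out gene (vertical axis, from 0) in cells grouped by how many of the other 7 genes were seen (horizontal axis), 1 point per pool and class. Levels rise from old cells with 0 to those with 4 or more of the other genes in both pools, and young cells with 0 sit lowest.

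Negative cells carried fewer stem cell genes and more progenitor genes than positive cells of the same pool. At 3000 UMIs per cell, 3 or more of 14 HSC identity genes were seen in 62.3% of negative and 94.7% of positive cells of old pool A, and in 31.8% and 90.6% in old pool B. Without thinning the shares were 77.6% and 100% in pool A and 51.1% and 99.8% in pool B. The young cells with 0 of the 8 genes stood at 61.8% and 63.7% when thinned. For the multipotent progenitor list (10 genes, among them Cd34, Cd48 and Flt3) the thinned order was the opposite, with 56.1% of negative against 22.0% of positive cells in pool A and 60.7% against 17.7% in pool B (unthinned 68.4% against 61.2%, and 77.3% against 59.6%). With 1 library per pool these shares have no test across mice, and a two-sided exact permutation within the 2 pairs could not go below p = 0.50.

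At equal depth, 3 or more cycling, neutrophil or basophil genes were also seen more often in negative cells. DNA replication genes (3 or more of 16, thinned) were seen in 40.5% of negative against 22.0% of positive cells in pool A and in 52.0% against 16.5% in pool B, whereas without thinning the order turned round in pool A (56.4% against 61.7%) and held in pool B (65.3% against 50.4%). Mitosis genes gave 12.5% against 3.35% and 17.9% against 5.64% (unthinned 14.7% against 6.02% and 29.5% against 8.90%). Erythroid genes gave 22.8% against 10.4% and 28.9% against 7.25% (unthinned 31.6% against 33.2% and 39.8% against 30.5%), but for 2 or more erythroid genes the thinned share of negative cells was 1.23 percentage points lower in pool A and 8.33 higher in pool B. Neutrophil genes gave 14.2% against 7.34% and 16.8% against 0.339% (unthinned 21.2% against 28.8% and 21.6% against 1.53%), so that the order of the last pair of lists in pool A also depended on the depth. Basophil and mast cell genes were seen in 4.15% against 0.453% and 8.67% against 0.127% of cells (unthinned 7.67% against 1.98% and 11.4% against 0.212%). Megakaryocyte and platelet genes showed no common order, with 2.42% against 6.07% in pool A and 4.62% against 3.82% in pool B (unthinned 6.44% against 28.9% and 10.2% against 27.6%).

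The negative cells of the 2 pools were not alike. Cells that were committed or dividing by marker counts (5 or more neutrophil, 4 or more erythroid, 3 or more basophil, early lymphoid or mitosis genes, or rich in immunoglobulin or hemoglobin) were 31.9% of negative cells in pool A and 58.5% in pool B, against 13.6% and 11.0% of positive cells. The negative class of pools A and B also held 8 and 4 cells rich in immunoglobulin and 1 and 2 rich in hemoglobin, so that the comparisons were also run without them. In old pool A, B and plasma cell genes were widespread at low level in all classes (3 or more of 10 seen, thinned, in 35.6% of negative, 33.0% of intermediate and 32.9% of positive cells, and unthinned in 59.2%, 63.8% and 75.4%), against 2.31%, 0.494% and 0.212% in old pool B (unthinned 4.55%, 2.35% and 3.98%).

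**Figure D3:**
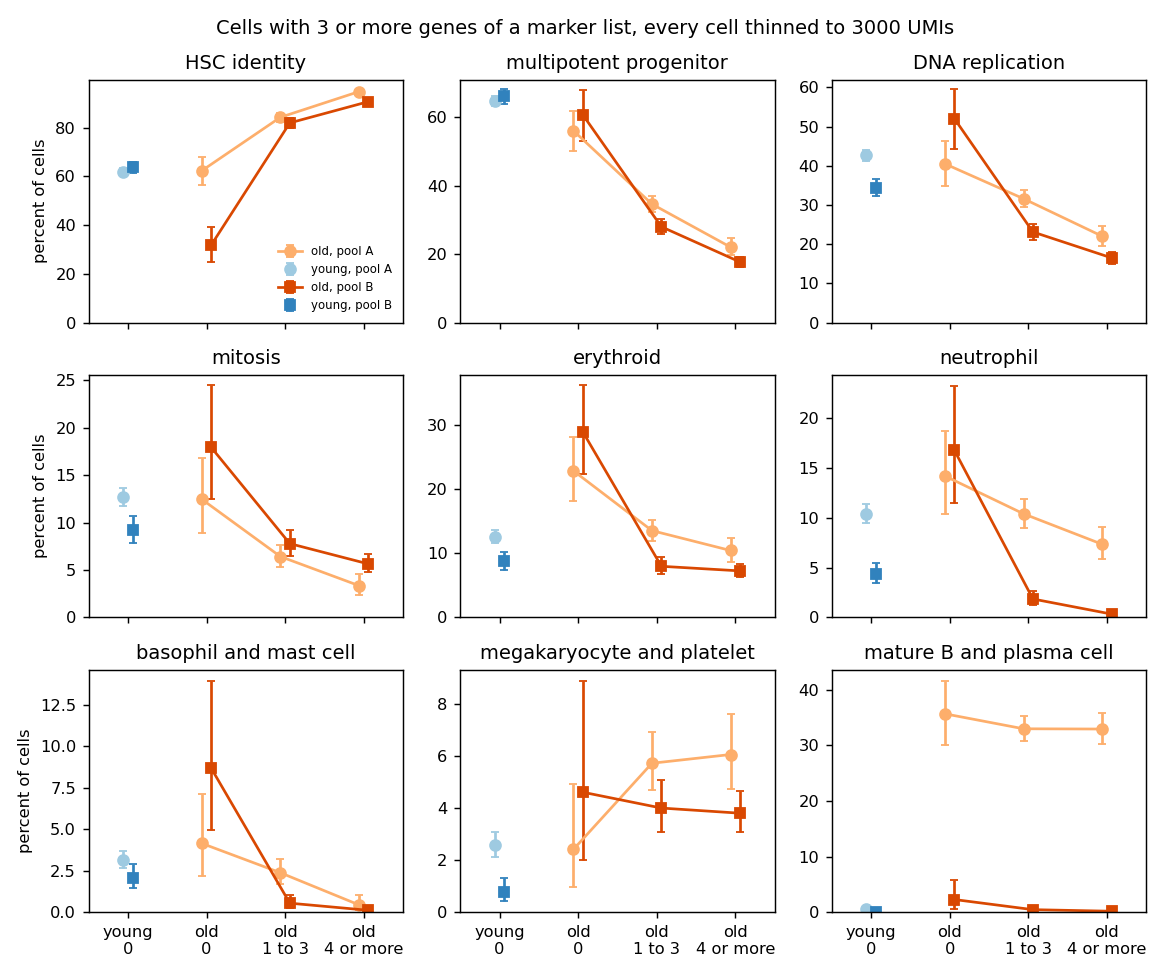
Percent of cells with 3 or more genes of a marker list (vertical axis, own scale in each panel), all cells thinned to 3000 UMIs, for young cells with 0 of the 8 genes and old cells with 0, 1 to 3 and 4 or more. Whiskers are exact 95% binomial intervals. HSC identity rises along the old classes (62.3% to 94.7% in pool A, 31.8% to 90.6% in pool B) and the progenitor list falls.

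Summed counts of the 3 classes in both old pools were then fitted gene by gene, with the pool as a block. Of 12692 genes outside the rule, 2597 (20.5%) differed between negative and positive cells, 1428 (11.3%) higher and 1169 (9.21%) lower in negative cells. Leaving out immunoglobulin- and hemoglobin-rich cells gave 2622 genes, matching cells on UMIs 2101, and keeping only cells with 3 or more HSC identity genes 1581. The count was 895 without committed or dividing cells. It was 453 without cycling cells (3 or more mitosis or replication genes), with 142 and 56 negative and 421 and 1163 positive cells left. It was 303 without lineage-primed cells, those with 3 or more genes of any lineage list, B and plasma cell genes included. There 75 and 56 negative and 128 and 1216 positive cells were left. Both cuts used full-depth counts, so lost calls there cannot be told apart from an effect of fewer cells. A fit without the pool block called none, with 1293 genes at an unadjusted p under 0.05. In these pools fewer cells of a kind within a class and less RNA per cell cannot be told apart in a summed level.

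HSC identity genes were lower in negative cells, with 8 of 14 tested genes called lower, 0 higher and a median log2 fold change of -1.30 (all genes -0.03). Slamf1, which encodes the stem cell sorting antigen CD150, had 21.6 and 15.7 CPM in negative, 34.0 and 38.4 in intermediate and 58.4 and 50.8 in positive cells of pools A and B. Its log2 fold change was -1.47 ± 0.20 (adjusted p = 6.5e-05), and the 2 classes did not overlap. Fgd5 (-2.06 ± 0.36) and Hoxb5 (-1.63 ± 0.27), both used as HSC reporters, were called lower as well. Procr, the HSC surface receptor EPCR, had 109 and 39.2 CPM against 227 and 225 CPM but did not pass (-1.58 ± 0.52, adjusted p = 0.22), nor did Mllt3 (-1.97 ± 0.54, adjusted p = 0.18) or Pdzk1ip1 (-1.39 ± 0.34, adjusted p = 0.12) in this edgeR fit. DESeq2 called all 14 genes lower, with 9.04% of all genes called higher and 5.33% lower by that tool. Without committed or dividing cells edgeR called 9 of the 14 lower, these 3 among them but not Hoxb5, with a median of -0.70 (3.39% of all genes higher and 3.95% lower there).

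Genes of the multipotent progenitor list went the other way, with 6 of 10 called higher, 0 lower and a median of 2.18. Cd34, a surface antigen gained as HSCs turn into progenitors, had 227 and 176 CPM in negative, 131 and 81.3 in intermediate and 75.5 and 44.0 in positive cells. Its log2 fold change was 1.83 ± 0.11 (adjusted p = 1.2e-08). Flt3, the receptor that marks lymphoid-primed progenitors and was gated out at the protein level, had 33.6 and 6.27 CPM against 5.30 and 1.64 CPM (2.54 ± 0.29, adjusted p = 1.3e-05). Nkg7, a granule membrane gene, had 278 and 527 CPM against 32.2 and 36.3 CPM (3.56 ± 0.31, adjusted p = 0.0066). The progenitor antigen Cd48 had 91.8 and 146 CPM against 6.28 and 1.55 CPM and Plac8 944 and 2110 CPM against 106 and 95.4 CPM, yet neither passed in edgeR (adjusted p = 0.12 and 0.11), while Cd27 was close to level (0.07 ± 0.10, adjusted p = 0.68). DESeq2 called 9 of the 10 higher, all but Cd27, and without committed or dividing cells edgeR called all 10.

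Cell cycle genes were higher in negative cells. All 16 tested DNA replication genes and 13 of 14 mitosis genes were called higher, with medians of 1.25 and 0.91 (1.59 and 1.90 with cells matched on UMIs, 1.48 and 2.39 thinned). Without committed or dividing cells, which mitosis genes helped to choose, 10 of the 16 replication and 0 of 13 tested mitosis genes were called. Without cycling cells, which genes of both lists chose, 0 of 16 and 0 of 8 tested were called. Rrm2, a subunit of ribonucleotide reductase, had 67.2 and 82.3 CPM in negative against 20.7 and 18.9 CPM in positive cells (1.94 ± 0.15, adjusted p = 3.2e-07). Mcm6, part of the replicative helicase, rose by 1.18 ± 0.11 and Dut, which clears dUTP, by 1.30 ± 0.11. Top2a, the topoisomerase of dividing cells, had 112 and 132 CPM against 40.0 and 56.6 CPM (1.39 ± 0.10, adjusted p = 9.2e-08), and Mki67 rose by 1.37 ± 0.18.

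The regulators of G1 split by kind. Of 11 G1 cyclins, kinases and pocket proteins, 6 were called higher and 3 lower (median 0.41). Without cycling cells 1 of 9 tested was called higher, Cdk6, and 2 lower, Ccnd1 and Ccnd2 (median -0.14). Without committed or dividing cells 2 were called higher, Cdk6 and Cdk4, and 3 lower. Cdk6, the kinase whose level sets how fast HSCs leave quiescence, had 337 and 280 CPM in negative, 181 and 150 in intermediate and 102 and 101 in positive cells (1.64 ± 0.10, adjusted p = 2.0e-08). The 3 lower genes were the D-type cyclins, which partner that kinase: Ccnd1 fell by 0.79 ± 0.13, Ccnd2 by 0.60 ± 0.09 and Ccnd3 by 0.35 ± 0.10, although with cells thinned to 3000 UMIs Ccnd3 stood at 0.02 and Ccnd1 lost its call. Of 5 tested cyclin-dependent kinase inhibitors, 2 were called lower. Cdkn1a, which encodes the stress-induced inhibitor p21, had 18.0 and 11.8 CPM against 70.0 and 16.8 CPM (-1.52 ± 0.25, adjusted p = 4.7e-04), a much wider gap in pool A than in pool B, and was not called with thinned cells. Cdkn1c (p57), an inhibitor tied to HSC quiescence, had 43.2 and 1.57 CPM against 110 and 26.0 CPM (-1.52 ± 0.27, adjusted p = 0.0055) and was not called by DESeq2, while Cdkn1b (0.10 ± 0.22, adjusted p = 0.81) and Cdkn2c (-0.20 ± 0.15, adjusted p = 0.40) did not pass.

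**Figure D4:**
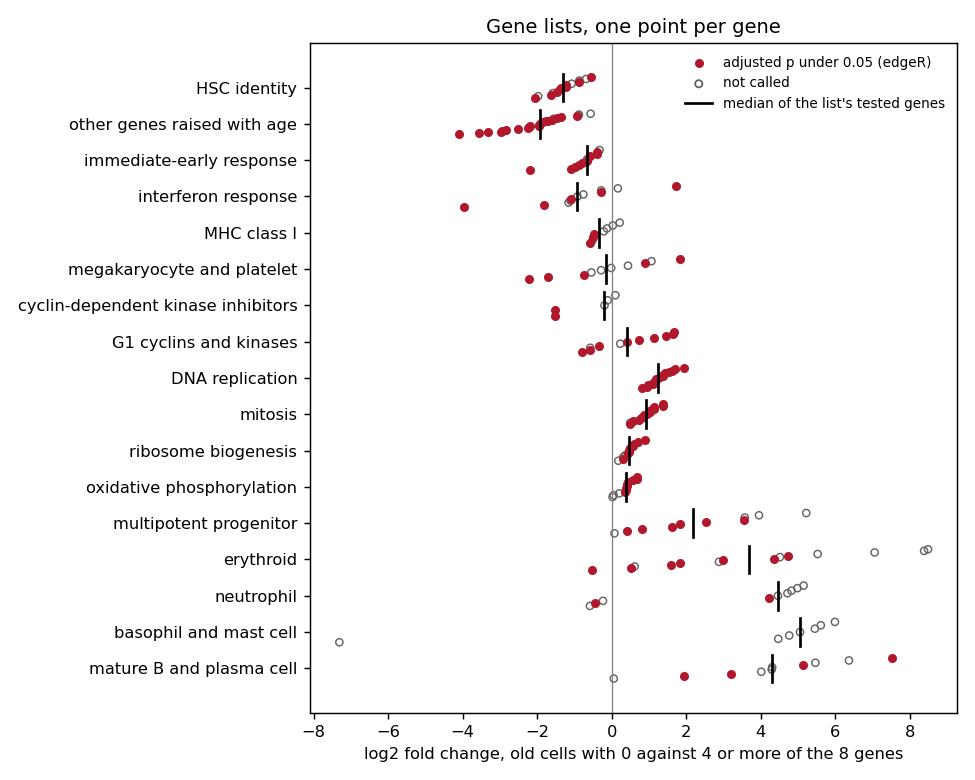
Log2 fold change of each gene (horizontal axis), negative against positive old cells, by gene list (vertical axis). Filled points were called by edgeR at an adjusted p under 0.05, open points were not, and black bars are list medians (-1.30 for HSC identity, 1.25 for DNA replication). No gene of the B and plasma cell list was called once immunoglobulin- and hemoglobin-rich cells were left out.

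Most neutrophil, basophil and mast cell genes had higher levels in negative cells, but edgeR called few of them. The size of the gap differed between the pools. Of 9 neutrophil genes 1 was called higher and 1 lower. Mpo, the granule enzyme myeloperoxidase, had 542 and 826 CPM in negative, 335 and 104 in intermediate and 70.9 and 11.1 in positive cells (4.71 ± 1.34, adjusted p = 0.19), and the protease gene Elane 466 and 547 against 30.8 and 7.65 CPM (5.15 ± 0.97, adjusted p = 0.10). Prtn3, another granule protease, was the one called lower, at 784 and 855 CPM against 1043 and 1297 CPM (-0.46 ± 0.07, adjusted p = 2.3e-04). None of 7 basophil and mast cell genes was called by edgeR, although the protease genes Prss34 (1619 and 4714 CPM against 81.8 and 27.8 CPM) and Mcpt8 (1073 and 3393 CPM against 78.6 and 24.7 CPM) were far apart between the classes, and DESeq2 called 6 of the 7 higher. DESeq2 likewise called 6 of 9 neutrophil genes higher and 1 lower.

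Of 14 erythroid genes 6 were called higher and 1 lower by edgeR, and 11 higher and 1 lower by DESeq2. Without committed or dividing cells, which erythroid genes helped to choose, 2 of 12 were called higher. Gata1, the master factor of erythroid and megakaryocyte fate, had 38.4 and 51.0 CPM in negative against 5.91 and 5.21 CPM in positive cells (2.98 ± 0.29, adjusted p = 5.4e-05). Ermap (4.74 ± 0.66), a red cell membrane gene, was called too. The hemoglobin gene Hba-a1 had 9.0 and 1508 CPM against 2.09 and 1.74 CPM and was not called (adjusted p = 0.39), and 2 negative cells of pool B were rich in hemoglobin. Car2, a carbonic anhydrase also abundant in HSCs, was lower (-0.53 ± 0.09, adjusted p = 0.0015). Of 10 megakaryocyte and platelet genes 2 were called higher, among them Gp5 (0.88 ± 0.25, adjusted p = 0.017, not called by DESeq2 or with cells matched on UMIs), and 3 lower, among them Vwf and the integrin gene Itgb3 (10.8 and 8.62 CPM against 36.7 and 28.6 CPM, -1.71 ± 0.23, adjusted p = 5.4e-05).

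Biosynthetic genes were modestly higher with all kept cells. Of 12 ribosome biogenesis genes 9 were called higher and 0 lower (median 0.46), with Myc at 203 and 107 CPM against 122 and 53.1 CPM (0.90 ± 0.10, adjusted p = 1.6e-05) and the nucleolar genes Ncl (0.58 ± 0.08) and Npm1 (0.30 ± 0.06). Of 12 oxidative phosphorylation genes 9 were called higher and 0 lower (median 0.39), with Ndufa4 (0.68 ± 0.09) and Cox5a (0.68 ± 0.10) among them. Without cells that showed 3 or more mitosis or replication genes, 1 ribosome biogenesis and 0 oxidative phosphorylation genes were called by edgeR (medians 0.03 and 0.05), beside 2.09% of all genes called higher and 1.97% lower. Without committed or dividing cells 3 and 2 were called (medians 0.24 and 0.04).

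By edgeR with all kept cells, most immediate-early genes, and some interferon response and MHC class I genes, were called lower in negative cells. Of 12 immediate-early genes 9 were called lower and 0 higher (median -0.66). Atf3 and Nr4a1, both among the 9, had no UMI in the negative cells of pool B. DESeq2 called 6 lower, and edgeR called 7 with cells matched on UMIs. Without cycling cells edgeR called 4 lower (Atf3, Zfp36, Nr4a1 and Egr1), so that Fos lost its call. Fos had 512 and 58.0 CPM in negative against 1068 and 94.1 CPM in positive cells (-0.87 ± 0.11, adjusted p = 3.6e-05), and Egr1 fell by 0.98 ± 0.14 and Zfp36 by 1.08 ± 0.11. Both Fos and Zfp36 were higher in pool A than in pool B in each class. Of 11 tested interferon response genes 4 were called lower, among them Ifit1 (-1.83 ± 0.35, adjusted p = 0.0027), Isg15 (-1.08 ± 0.18, adjusted p = 4.5e-04) and Bst2 (-0.29 ± 0.10, adjusted p = 0.044), and 1 was called higher, Ifi27l2a. The remaining lower gene, Ifit3, had no UMI in the negative cells of pool A. Bst2 was not called by DESeq2, and without cycling cells Bst2, Isg15 and Ifi27l2a all lost their calls. Of 8 MHC class I genes 3 were called lower, with H2-D1 at 1707 and 1251 CPM against 2257 and 1955 CPM (-0.48 ± 0.07, adjusted p = 0.000105) and H2-K1 at -0.51 ± 0.09, whereas B2m did not pass (-0.22 ± 0.07, adjusted p = 0.063). Without cycling cells H2-T23 alone of the class I genes was called lower. Of 7 MHC class II genes 1 was called lower, H2-DMb1, and 0 higher (median -0.40). Their direction depended on the cells included, since without cycling cells H2-Aa and Cd74, without committed or dividing cells H2-DMa and H2-Ab1, and with only cells of 3 or more HSC identity genes H2-DMa were called higher and none lower (medians 0.17, 0.21 and 0.06).

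Most genes of a list known for rising with age, other than the 8, were lower in negative cells. In a list of 25 such genes 21 were called lower and 0 higher, of which 5 had no UMI in the negative cells of a pool. Of the 15 with at least 20 CPM on average over the old sums, 13 were called lower (median -1.87), beside 11.9% of all genes at that level called lower and 17.8% higher. The list was drawn up with age differences of these pools known, which does not fix its direction among old cells. In the published aging signature, given as 220 symbols of both directions, 209 genes were tested after the rule genes were set aside, of which 114 were called lower and 24 higher. Of these 114, 17 had no UMI in the negative cells of a pool. Genes of few counts pass the filter through the class where they are high. Of the 94 genes with at least 20 CPM 55 were called lower and 15 higher (median -0.89), and each had a UMI in the negative cells of both pools. That level is a mean over all old classes. A gene such as Ramp2 or Jam2 can reach it through intermediate and positive cells, so these counts keep part of that limit. Among the 24 higher were Cd34, Flt3 and the replication genes Mcm5 and Mcm7.

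The 10 genes with the largest decrease among called genes of at least 20 CPM on average included adhesion, vessel and metabolic genes. Rarer genes were not ranked, since called ones such as Kcnb2, Ifit3 and Kdr had only 1, 1 and 2 UMIs in all negative cells together. Ramp2 (chr11:101246028-101259546), which encodes a partner protein of the adrenomedullin receptor, had 10.2 and 3.14 CPM in negative, 27.3 and 40.1 in intermediate and 76.8 and 101 in positive cells (-3.56 ± 0.27, adjusted p = 2.2e-06). Jam2, a junctional adhesion molecule, had 9.60 and 3.92 CPM against 55.0 and 49.6 CPM (-2.83 ± 0.26), and Sult1a1, a sulfotransferase, 75 and 40.8 CPM against 313 and 374 CPM (-2.51 ± 0.32, adjusted p = 0.019). Vwf, the clotting factor that marks platelet-biased HSCs, had 24.0 and 9.41 CPM against 88.5 and 80.1 CPM (-2.23 ± 0.19, adjusted p = 1.3e-06). In each of these genes the intermediate class lay between the other two in both pools. Others were Klrb1c (-2.86 ± 0.33), Gm10419 (-2.43 ± 0.30), Tm4sf1 (-2.35 ± 0.36), Col16a1 (-2.32 ± 0.30) and Clca3a1 (-2.31 ± 0.20).

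Among the 10 genes with the largest increase at that level, 2 belonged to antibody-secreting cells. Mzb1, a chaperone of immunoglobulin assembly, had 58.8 and 56.5 CPM in negative against 3.45 and 0.657 CPM in positive cells (5.13 ± 0.58, adjusted p = 0.0068), and the light chain gene Iglc1 had 78.0 and 14.1 CPM against 1.73 and 0.141 CPM. The B and plasma cell list as a whole summed to 17214 and 21494 CPM in negative, 5399 and 3783 in intermediate and 2011 and 430 in positive cells, with Igkc its most abundant gene and none of its 10 genes at 0 in negative cells. Without the cells rich in immunoglobulin or hemoglobin none of the 9 tested genes of the list was called (11.4% of all genes were called higher there), and Mzb1 stood at 0.27 ± 0.87 (adjusted p = 0.87). Slpi also lost its call without those cells (2.27 ± 0.81, adjusted p = 0.25). The other 8 increases were Nkg7, Lat2 (3.44 ± 0.49), Ccl9 (3.02 ± 0.15), Gata1, Rgs10 (2.86 ± 0.27), Slpi with those cells in (2.82 ± 0.32), Tnfaip8l2 (2.62 ± 0.28) and Slc22a3 (2.59 ± 0.18). Ccl9, a myeloid chemokine, had 106 and 120 CPM against 16.6 and 12.4 CPM, and Slc22a3, an organic cation transporter, 63.6 and 25.1 CPM against 10.5 and 4.65 CPM.

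Much of this held among cells with several HSC identity genes. With only cells that showed 3 or more HSC identity genes and were not rich in immunoglobulin or hemoglobin, 248 and 90 negative cells remained, against 1112 and 2354 positive cells. Their medians were 4407.5 and 6062.5 against 6697 and 7637 UMIs. Other committed cells were not left out, and lineage genes such as Cpa3 (3.07 ± 0.20) and Ctsg (2.36 ± 0.13) were among the largest increases. In this comparison Ramp2 differed by -3.25 ± 0.24, Jam2 by -2.65 ± 0.28, Vwf by -1.81 ± 0.18 and Sult1a1 by -2.02 ± 0.11, all called by edgeR. Of all tested genes 6.25% were called higher and 6.33% lower here, and of those with at least 20 CPM 10.5% and 9.25%. At that level 14 of 14 age-raised genes were called lower, and of 91 genes of the published signature 61 lower and 17 higher. Cd34 (1.99 ± 0.10) and Flt3 (2.70 ± 0.33) stayed higher, as did 15 of 16 replication and 11 of 14 mitosis genes. Mpo was called here (2.2 ± 0.10), and 12 of 12 immediate-early genes were called lower. The HSC identity genes chose these cells and are left out of the counts of both age lists.

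In a second comparison, between old and young cells with 0 of the 8 genes (326 and 176 old, 4380 and 1810 young cells), 54 of 11663 tested genes (0.463%) were called with the platform as a block, 45 (0.386%) higher and 9 (0.0772%) lower in old cells. The higher count includes genes of the age-raised list, among them Mt1, Mt2, Sdpr and Aldh1a1. These were picked with age differences of these pools known, so that part of the count is no independent result. Without the block none was called, with 273 genes at an unadjusted p under 0.05, and without old pool A or old pool B 2 and 4 genes were called. The young cells of this comparison had medians of 5924.5 and 6112.5 UMIs, against 4403 and 6036.5 in old cells, and matching on UMIs gave 58 genes.

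**Figure D5:**
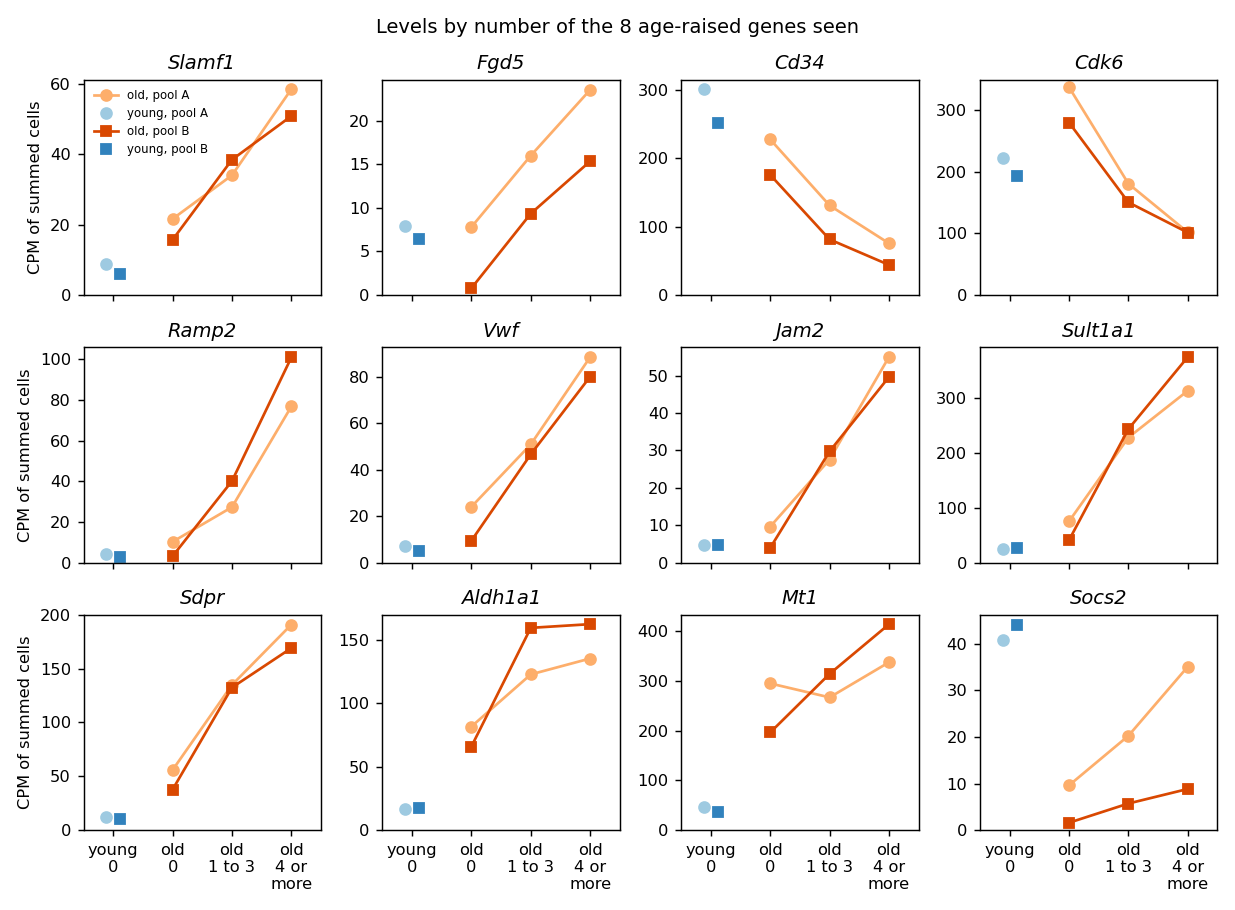
CPM of 12 genes (vertical axis, from 0, own scale in each panel) in summed cells of each class and pool. Vwf, Sdpr and Aldh1a1 step up from young cells with 0 of the 8 genes through old cells with 0 and 1 to 3 to old cells with 4 or more, Cd34 and Cdk6 fall along the old classes, and Socs2 is highest in young cells.

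Genes of the age-raised list were drawn from age differences of these pools, so their levels in old and young negative cells are given without a test. The metallothionein genes Mt1 and Mt2, which bind metals, had 295 and 196 CPM and 84.6 and 59.6 CPM in old negative cells against 45.9 and 36.6 CPM and 9.95 and 5.43 CPM in young ones. The caveola gene Sdpr had 55.8 and 37.6 CPM against 11.8 and 10.3 CPM, and Aldh1a1, a retinaldehyde dehydrogenase, 81.6 and 65.9 CPM against 16.4 and 17.4 CPM. Sdpr and Aldh1a1 were at the same time well below the 191 and 169 CPM and 135 and 162 CPM of positive cells. The old and young sums of these 4 genes did not overlap, which the choice of the list favors.

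Other genes of that list lay closer to young levels. Ramp2 had 10.2 and 3.14 CPM in old negative against 3.96 and 2.56 CPM in young cells, and Jam2 9.60 and 3.92 against 4.76 and 4.73 CPM. Vwf had 24.0 and 9.41 against 6.92 and 4.89 CPM and Slamf1 21.6 and 15.7 against 8.68 and 5.97 CPM, with both old sums above both young sums. The choice of the list favors that order. Outside the list, Cd34, Cdk6 and the replication and mitosis lists gave no call, with list medians of 0.24 and -0.08. Of the 14 HSC identity genes none was called by edgeR or DESeq2 (median -0.36), with 13 of 14 values below 0. Without committed or dividing cells 8 of 14 were below 0 (median -0.05). With only cells of 3 or more HSC identity genes 9 of 14 were below 0 (median -0.06). Slamf1 is also a gene of the age-raised list, so no call is read for it there. Since the same genes chose those cells, that setting cannot show whether their level differed. At this depth a 2-fold change was often missed, since 21 of 100 simulated 2-fold changes and 95 of 100 4-fold changes were found in this comparison.

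The largest increases were immunoglobulin genes. Igkc had 9889 and 15574 CPM in old negative against 440 and 322 CPM in young cells (5.06 ± 0.52, adjusted p = 1.9e-08), Jchain 1980 and 1118 against 67.8 and 61.6 CPM and Iglc2 120 and 50.2 against 7.79 and 2.48 CPM. Ighg2b had 979 and 2.35 CPM and no UMI in either young sum. Without immunoglobulin- and hemoglobin-rich cells, 66 genes were called, 52 higher and 14 lower, and the largest increase was again an immunoglobulin gene, Igha, at 219 and 8.95 against 5.20 and 0.156 CPM (5.37 ± 0.38, adjusted p = 5.0e-21), which was not called with those cells in. Its level was like that of the intermediate (211 and 8.64 CPM) and positive cells (213 and 7.70 CPM) of the same pools. Jchain was then at 85.3 and 4.88 against 9.03 and 1.48 CPM (2.77 ± 0.39, adjusted p = 4.7e-07), with 91.5 and 3.10 CPM in positive cells. Slpi, a secreted protease inhibitor, had 196 and 141 CPM against 9.62 and 13.2 CPM (3.91 ± 0.30, adjusted p = 5.4e-12) and stayed at 74.8 and 127 CPM against 9.36 and 13.2 CPM without those cells (3.12 ± 0.28).

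A few MHC class II and lineage genes were higher in old negative cells. Of 7 MHC class II genes 2 were called higher, H2-Aa (165 and 142 CPM against 50.1 and 89.5 CPM, 1.21 ± 0.28, adjusted p = 0.037) and H2-Eb1 (1.79 ± 0.33, adjusted p = 0.025), while the invariant chain gene Cd74 missed (1.39 ± 0.35, adjusted p = 0.084). With only cells of 3 or more HSC identity genes 4 of 7 were called higher, beside 0.424% of all genes. Elane (1.66 ± 0.33, adjusted p = 0.0046) and Gata1 (1.37 ± 0.30, adjusted p = 0.019) were higher, among 3 of 9 neutrophil and 3 of 14 erythroid genes called. Committed or dividing cells, which neutrophil and erythroid genes helped to choose, were 31.9% and 58.5% of old negative cells against 29.1% and 20.3% of young ones. Without them neither gene was called. There edgeR called 1 neutrophil gene (Ctsg) and 0 erythroid genes higher, beside 0.479% of all genes (list medians 0.30 and 0.30). That choice of cells acts on the genes tested, so the lost calls decide nothing about them. Gata1 was not called by DESeq2 or with only cells of 3 or more HSC identity genes either. Of 11 tested immediate-early genes 2 were called higher, Klf4 (3.01 ± 0.46, adjusted p = 3.0e-04) and Dusp1 (1.80 ± 0.27, adjusted p = 5.8e-05).

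Decreases were few. Socs2 (chr10:95385362-95417180), a feedback inhibitor of cytokine signaling, had 9.60 and 1.57 CPM in old negative against 40.8 and 44.1 CPM in young cells (-2.91 ± 0.45, adjusted p = 0.0032), and positive cells of the old pools held 35.1 and 8.82 CPM. The eosinophil granule gene Prg2 fell by 1.69 ± 0.28 (-5.52 ± 0.44 without immunoglobulin- and hemoglobin-rich cells, but 1.65 in the opposite direction with cells matched on UMIs), the cytokine subunit gene Ebi3 by 1.65 ± 0.29, the endomucin gene Emcn by 1.61 ± 0.34 and Gm5111 by 1.36 ± 0.29. Emcn, which encodes a sialomucin of HSCs and endothelium, had 18.6 and 7.06 CPM against 39.6 and 37.1 CPM. In all 5 genes both old sums lay below both young sums, an order favored by their choice for size and direction of change.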

How the data were processed

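The 4 pools of sorted HSPCs were analyzed. The deposited values were raw UMI counts per gene and barcode, made by the authors with Cell Ranger (2.2.0 in the submitters' processing notes) on GRCm38.p4 (mm10), in 28692 genes. For the gene annotation the sources used here name no release. The design text gives deeper sequencing for young pool B and old pool A. Kept cells summed to 36446168 UMIs (young A), 16399999 (young B), 20788935 (old A) and 33286187 (old B). Doublets were limited only by the UMI filter and, in an alternative, by leaving out cells over 2 times the pool median.

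UMIs were summed per class and pool. Sums were tested with edgeR 4.0.16 (R 4.3.3; TMM, filterByExpr, quasi-likelihood test, Benjamini-Hochberg adjustment at 0.05), with the pool (first comparison) or platform letter (second) as a block, which pairs classes of the same mice and pools of the same platform. Deviations of sums of one letter from their class means correlated at 0.54 and 0.37 across genes. SEs are |log2 fold change| / √F. DESeq2 1.42.0, other scalings, filters, cell sets and left-out pools were alternatives. Named genes were the 10 (second comparison: 5) largest called changes per direction with at least 20 CPM on average and one direction in both pools, 18 fixed genes, and in each list the 4 most abundant and the called genes, of which a part is printed. On data simulated for the first comparison (12409 genes), edgeR found 96 of 100 2-fold and 98 of 100 4-fold changes with 16 false calls, and for the second (11442 genes) 21 and 95 with 13 false calls. Changes were set only in genes above 20 CPM on average, and no pool or platform difference was simulated. Cells, lists and tests were chosen with earlier results of these data known. Thinning to 3000 UMIs left out 176 and 4 cells of old pools A and B. Some of the genes the rule names are not reported here.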

Additional observations from a re-analysis of the deposited data

How the results depend on the processing

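Of the settings tried for negative against positive cells (2597 genes called), the count was 1423 with only these 2 classes in the fit, 453 without cells that showed 3 or more mitosis or replication genes, 303 without lineage-primed cells, 895 without committed or dividing cells and 1581 with only cells of 3 or more HSC identity genes, the last pair, like the fit without immunoglobulin- and hemoglobin-rich cells, chosen after seeing the data. DESeq2 called 1823. For old against young negative cells (54 called), it was 102 without the low-count filter, 21 without the UMI filter, 19 without cells over 2 times the pool median, 14 without lineage-primed cells, 252 under the rule without Nupr1 and Clu, 37 with DESeq2, and 2 to 30 with 1 pool left out. Without the replicate block both counts were 0, and the direction of the named genes did not turn. The negative share was 19.2% and 9.81% when thinned and 25.3% and 12.6% without Nupr1 and Clu in the rule. With 1 pool left out, the left-out Nupr1 ranged from -1.33 to -1.26, Clu from -3.13 to -2.72, Selp from -1.91 to -1.86, Sbspon from -5.18 to -3.37, Matn4 from -3.75 to -2.60, Cldn5 from -4.28 to -2.27, Plscr2 from -1.47 to -0.97 and Gstm2 from -2.82 to -1.99, and Cldn5 thinned stood at -2.36. With 2 or more list genes in place of 3, the mean difference in thinned share (negative minus positive, percentage points) was 28.3 for multipotent progenitor, -8.78 for megakaryocyte, 3.55 for erythroid (-1.23 in pool A, 8.33 in pool B), 10.6 for basophil, 0.954 for early lymphoid, 3.53 for B and plasma cell and 15.5 for mitosis genes. Log2 fold changes turned round for Iglc1 (-6.22 without immunoglobulin- and hemoglobin-rich cells, -6.23 without committed or dividing cells, -6.33 with only HSC identity cells), Slpi (-0.40 without lineage-primed, -0.0746 without committed cells), Npm1 (-0.0447 without cycling, -0.0131 without lineage-primed and -0.00875 without committed cells), Mzb1 (-0.0121) and Mki67 (-0.64) without committed cells, Mcm7 (-0.00499) without cycling cells, Ccnd3 (0.0244) when thinned, and Prg2 in old against young cells (1.65 matched on UMIs, 3.76 without cycling cells). The causes were not tested. With 2 pools per age, few 2-fold changes between ages could be seen.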

Other observations

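Between negative and positive old cells, 11.3% of all tested genes were called higher and 9.21% lower. Of 12 glycolysis genes 1 was called higher (Pgam1) and 3 lower (Hk2, Pkm and Pfkp), with a median log2 fold change of -0.01. Of 9 macrophage and monocyte genes 3 were higher (F13a1, Csf1r and Ms4a6c) and 1 lower (Lyz2). Among 6 early lymphoid genes Il7r, the interleukin-7 receptor, and Dntt, which adds bases at antigen receptor joints, were higher, and Gata3 was lower. Of the 8 endothelial and stromal genes, 5 in pool A and 6 in pool B had no UMI in negative cells.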
